A study of Mus musculus with 16 samples.

Results

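The 10 genes described here carry amino acids across the muscle cell membrane or run and control the opening steps of branched-chain amino acid breakdown. They are Slc7a2, Slc7a5, Slc3a2, Slc38a2, Slc38a4, Slc1a5, Bcat2, Bckdha, Bckdhb and Bckdk. They were taken by symbol from the deposited tables of gastrocnemius, a calf muscle, in which they are 10 of 35415 genes. All 10 passed the filter on low counts, which left 14749 genes for testing. The mice were wild type male BALB/c animals bought at 8 weeks of age, and 4 mice per group gave 16 libraries of polyA RNA. The control group (C, labelled NC) and the exercise group (E, labelled N-A) carried no tumor and were injected with saline. The tumor-bearing group (T, labelled TS) and the tumor-bearing plus exercise group (TE, labelled TSA) received CT26 cells, a mouse colon carcinoma line, under the skin of the left hind limb, where the other mice received the saline. E and TE mice ran on a treadmill for 60 min a day on 6 days a week for 4 weeks, and C and T mice stood on a treadmill that did not move. The 4 mice of each group were drawn from 12. Which leg was sequenced, and whether each sequenced TE mouse bore a tumor, is not given in the sources used here. Since the tumor cells were placed over a hind limb, a nearby and a whole-body effect of the tumor cannot be told apart.

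Muscle takes up the branched-chain amino acids leucine, isoleucine and valine through exchangers such as the heterodimer of SLC7A5, the light chain that carries the substrate, and SLC3A2, the glycoprotein heavy chain that brings it to the cell surface. SLC38A2, SLC38A4 and SLC1A5 carry small neutral amino acids, among them glutamine and alanine, together with sodium, and SLC7A2 carries arginine and lysine. Inside mitochondria BCAT2 moves the amino group to 2-oxoglutarate, and the branched-chain keto acid dehydrogenase then commits the carbon skeleton to oxidation. BCKDHA and BCKDHB are the alpha and beta subunits of the E1 part of that enzyme, and BCKDK is the kinase that phosphorylates BCKDHA and so inhibits the enzyme. Skeletal muscle is known for a high capacity for the transamination step.

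Library totals ran from 35628211 to 37635741 counts, so 3 counts stood for 0.0797 to 0.0842 CPM, counts scaled to the library total. Member levels given in CPM below are also scaled by the TMM factors, which adjust the totals for differences in composition. The 9 markers of muscle fibers summed to between 69120 and 81219 FPKM (a level per transcript length and library size) in every library, and the 6 epithelial and CT26-like markers to at most 2.61 FPKM. The 11 lymph node and lymphocyte markers summed to 5.06 to 46.4 FPKM in 15 libraries and to 137 FPKM in the library TE 4. Values without it are given below for some of the results that include it. Erythroid markers (5 genes) summed to 361 to 581 FPKM in the C and E groups and to 733 to 1271 FPKM in the T and TE groups. In whole muscle, fewer cells of a type and less RNA per cell cannot be told apart.

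The start regions of the members were read from RefSeq (build GRCm38.p6), where 7 of the 10 genes matched, with 11 start sites among them. Slc7a2, Slc7a5 and Slc1a5 had no entry. The 250 bases before the start are shown for 3 genes, 5′ to 3′ on the strand of the gene. Slc3a2 is shown because it was the member that passed the test. Slc38a2 and Slc38a4 are shown because they were high and low in the same libraries, and for Slc38a4 the most upstream of 3 starts is printed. Capitals mark a CCAAT box, read as CCAAT or as ATTGG on the opposite strand.
Slc3a2, chr19:8713898-8714147, minus strand: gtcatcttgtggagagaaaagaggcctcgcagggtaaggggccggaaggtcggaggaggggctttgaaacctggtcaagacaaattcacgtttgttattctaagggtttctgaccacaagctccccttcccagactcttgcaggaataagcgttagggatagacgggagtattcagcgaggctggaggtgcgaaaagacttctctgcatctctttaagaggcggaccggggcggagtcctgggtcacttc
Slc38a2, chr15:96699729-96699978, minus strand: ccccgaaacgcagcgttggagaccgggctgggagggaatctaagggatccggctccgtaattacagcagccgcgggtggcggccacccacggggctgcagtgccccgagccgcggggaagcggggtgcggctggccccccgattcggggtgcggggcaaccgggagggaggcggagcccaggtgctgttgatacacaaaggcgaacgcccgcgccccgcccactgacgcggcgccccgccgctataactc
Slc38a4, chr15:97055957-97056206, minus strand: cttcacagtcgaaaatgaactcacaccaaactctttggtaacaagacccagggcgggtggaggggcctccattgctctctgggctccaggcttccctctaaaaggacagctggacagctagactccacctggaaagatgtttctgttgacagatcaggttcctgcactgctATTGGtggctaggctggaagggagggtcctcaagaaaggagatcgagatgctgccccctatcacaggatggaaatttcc
The window of Slc38a2 was 72.0% G and C, that of Slc38a4 52.8% and that of Slc3a2 53.6%, against a median of 52.4% over all 32851 windows in the table. The search covered 5 motifs on both strands, chosen after the values of the members were known. These were TGATGNAA (the core of the amino acid response element, in 3.45% of all windows of this length), TTCNNNGAA (a STAT element, 7.02%), CACGTG (an E-box, 6.02%), TGACGTCA (a cyclic AMP response element, 1.55%) and CCAAT (33.8%), and no match of one can hold a whole match of another. None of the 11 member windows held TGATGNAA, TTCNNNGAA, CACGTG or TGACGTCA. Bases farther upstream or after the start were not searched, so the absence holds for these windows only. With shares of 1.55% to 7.02% over all windows, it does not set the members apart. CCAAT occurred in windows of Bckdk, Bckdhb and Slc38a4, and in the printed Slc38a4 window it lies 79 bases before the start on the opposite strand. The windows of Slc3a2 and Slc38a2 held none of the 5.

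In transcript level per length the members spanned a wide range. The deposited FPKM imply gene lengths from 1769 bases (Bckdhb) to 9995 bases (Slc3a2), and the order of levels depends on them. Bckdha had the highest mean over the 16 libraries at 66.3 FPKM (58.1 to 76.0), followed by Bckdk at 59.1 FPKM (54.4 to 65.2) and Slc38a2 at 45.5 FPKM (28.9 to 68.4), and the ranges of these 3 genes overlapped. Slc38a4 at 20.8 FPKM (14.2 to 31.2), Bckdhb at 16.5 FPKM (15.3 to 17.95) and Bcat2 at 14.95 FPKM (12.5 to 17.1) formed a second set with overlapping ranges, and the highest Slc38a4 library lay above the lowest of Slc38a2. Slc7a2 at 9.05 FPKM (5.41 to 12.3), Slc1a5 at 7.77 FPKM (4.16 to 12.2) and Slc3a2 at 4.15 FPKM (3.52 to 5.69) came next, Slc3a2 overlapping Slc1a5 and, in its highest library, Slc7a2. Slc7a5 was the lowest at 0.927 FPKM (0.583 to 1.54), from 73 to 196 counts per library, and its range overlapped that of no other member. The catabolic genes varied least between libraries: the highest library stood 1.18-fold above the lowest for Bckdhb, 1.20-fold for Bckdk, 1.31-fold for Bckdha and 1.36-fold for Bcat2. The same span was 1.62-fold for Slc3a2 and between 2.20-fold and 2.93-fold for the other transporters.

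**Figure D1:**
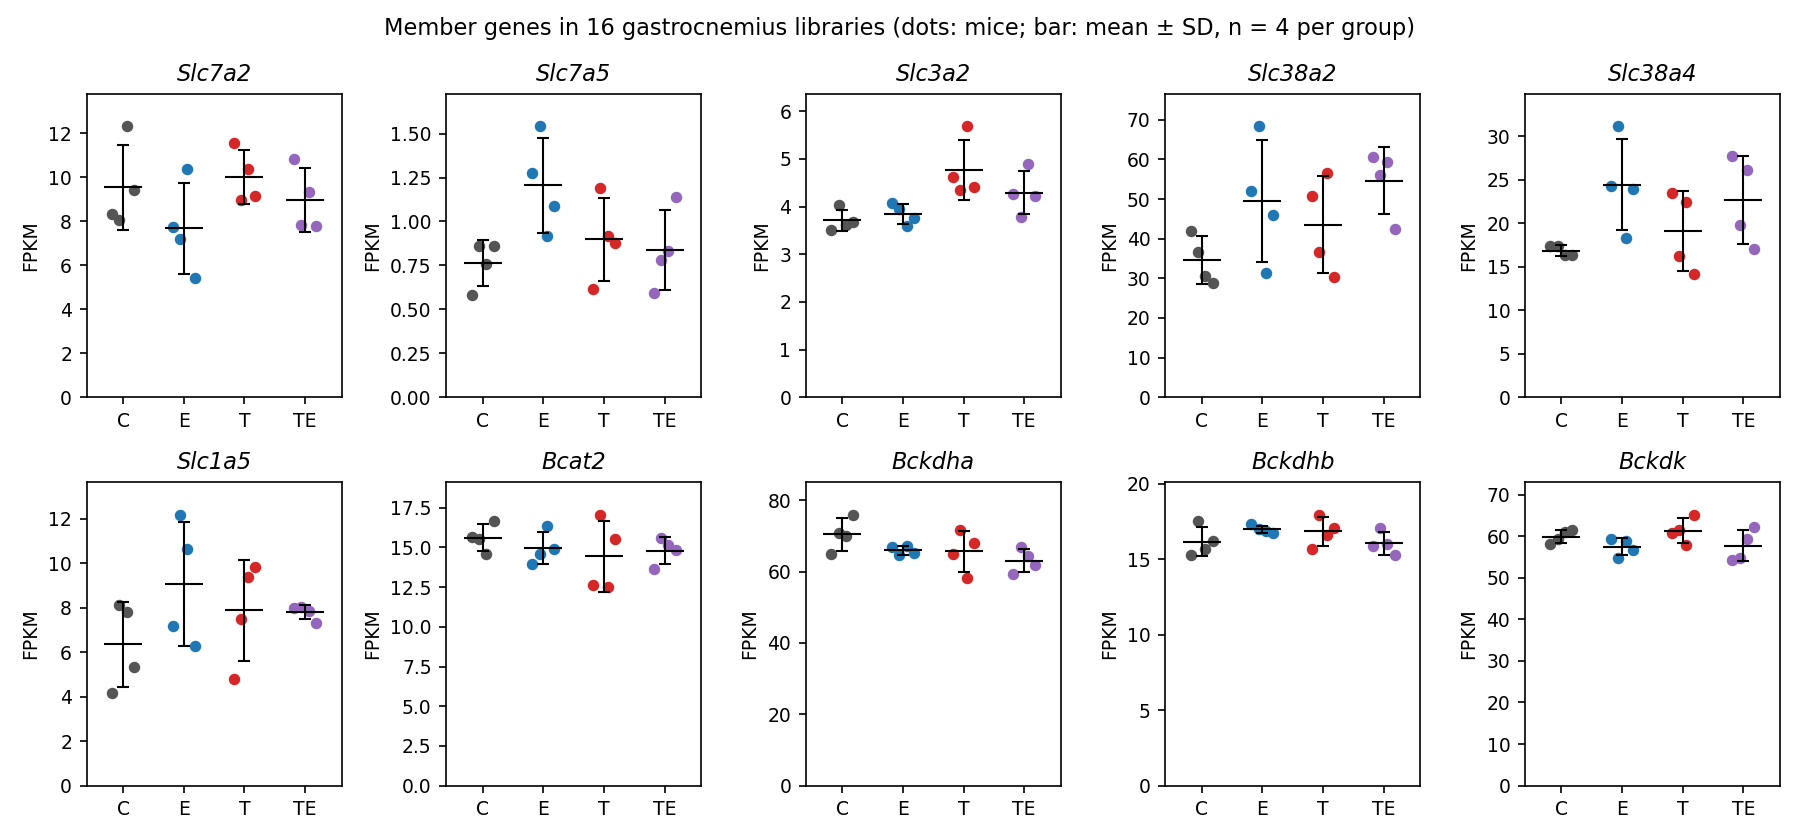
Level of each of the 10 genes in FPKM (y axis, from 0, scaled for each gene) in every mouse, by group (x axis). Dots are mice and bars show the mean ± SD of 4 mice; Slc3a2 in the T group (4.34 to 5.69 FPKM) lies above the C group (3.52 to 4.04 FPKM), while Bckdhb spans 15.3 to 17.95 FPKM over the 16 libraries.

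Slc3a2 rose with the tumor, and it was the 1 member of 10 that passed the test in any of the 7 contrasts. In the C group it stood at 3.52, 4.04, 3.62 and 3.67 FPKM and in the E group at 4.07, 3.94, 3.58 and 3.75 FPKM. In the T group it stood at 4.61, 4.34, 5.69 and 4.42 FPKM and in the TE group at 4.26, 3.79, 4.89 and 4.23 FPKM. Each T library was above each C library, the TE and E groups overlapped through the library TE 2, and the highest values were the third replicates of T and TE. The means were 3.71 ± 0.227 (C), 3.84 ± 0.214 (E), 4.77 ± 0.626 (T) and 4.29 ± 0.452 FPKM (TE, SD, n = 4 each). Averaged over training, the tumor-bearing groups exceeded the tumor-free groups by 0.30 on the log2 scale (SE 0.0629, edgeR adjusted p = 0.0227), a difference of 23.0%. The tumor main effect called 1.36% of all tested genes at an adjusted p under 0.05 and 14.2% at an unadjusted p under 0.05, and 1 of 10 members by either rule, and DESeq2 called 2.96% of the genes it tested and the same 1 member. The gene lies at chr19:8684245-8701108 (GRCm39, minus strand).

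The call was near the threshold. It was lost without the library C 4 (0.29, edgeR adjusted p = 0.0541) and without the library E 3 (0.28, edgeR adjusted p = 0.0561), and it held without the library TE 4 (0.31, edgeR adjusted p = 0.0300). Over the alternatives the log2 fold change stayed between 0.26 and 0.32 and the adjusted p between 0.00119 and 0.0561. Markers of other cells were also higher in the tumor-bearing groups. The 8 neutrophil markers summed to 1.61 to 17.7 FPKM in the C and E groups and to 15.5 to 87.5 FPKM in the T and TE groups, and of these Retnlg and Camp were at 0 in every C library. Slc3a2 gave r = 0.646 with that sum over the 16 libraries (rho = 0.662), 0.672 without the 2 outer libraries and 0.033 once the group means were removed. With the sum of the 5 erythroid markers, none of them at 0, r was 0.606 (rho = 0.591), 0.663 and -0.077. These relations were looked at after the values were seen and are given without a test, and the part of either cell type in the result was not tested.

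Comparing T with C alone, which asks what the tumor did in untrained muscle, no member passed the adjusted test in edgeR. Slc3a2 gave a log2 fold change of 0.39 (SE 0.0889, 95% confidence interval 0.20 to 0.57, edgeR adjusted p = 0.0570), or 1.31-fold. The contrast called 0.678% of all tested genes and 0 of 10 members, and at an unadjusted p under 0.05 it held 14.2% of all genes and 1 member. DESeq2 called 2.85% of its genes and 1 member, Slc3a2, with an adjusted p of 0.00616, and edgeR without the low count filter gave an adjusted p of 0.0428. Without the library T 2 the edgeR adjusted p was 0.0332 and without TE 3 it was 0.0383, and the range over all alternatives was 0.00616 to 0.167. In CPM scaled by the TMM factors the ranges of T and C did not overlap for Slc3a2, as for 6.86% of all tested genes. The other 9 members gave log2 fold changes from -0.088 (Bcat2) to 0.36 (Slc38a2), and all 9 intervals included 0.

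The partner chain Slc7a5 had its highest values in the trained mice without tumor. It stood at 0.583, 0.859, 0.759 and 0.863 FPKM in the C group and at 1.28, 1.54, 0.915 and 1.09 FPKM in the E group. In the T group it stood at 0.614, 1.19, 0.917 and 0.875 FPKM and in the TE group at 0.591, 0.781, 0.834 and 1.14 FPKM. Each E library was above each C library, and the T and TE groups overlapped both. The log2 fold change in E compared with C was 0.62 (SE 0.227, interval 0.14 to 1.10), which did not pass (edgeR adjusted p = 0.239). In TE compared with E it was -0.48 (SE 0.226, edgeR adjusted p = 0.535), and the interaction of tumor and training was -0.74 (SE 0.321, edgeR adjusted p = 0.528). Without the library TE 4 these last values were -0.64 and -0.90.

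No relation between the chains of the heterodimer was detected across the mice. The FPKM ratio of Slc7a5 to Slc3a2 averaged 0.206 ± 0.0290 in C, 0.313 ± 0.0578 in E, 0.192 ± 0.0612 in T and 0.196 ± 0.0563 in TE (SD, n = 4 each), so the light chain was the less abundant transcript in every library. With tumor the log2 ratio differed by -0.42 (exact permutation test within training strata, two-sided, p = 0.0404, adjusted over 6 ratio tests 0.121), and in untrained mice alone by -0.14 (adjusted 0.571). With training it differed by 0.32 (exact permutation test, p = 0.105, adjusted 0.150), and in tumor-free mice alone by 0.60 (adjusted 0.0857). There each E ratio (0.255 to 0.392) lay above each C ratio (0.166 to 0.235). With 4 against 4 mice the exact permutation p cannot be under 0.0286. Adjusted over 6 tests, such a value has little room to pass. The correlation of the chains in log2 CPM over the 16 libraries was r = -0.036 (permutation p = 0.895, rho = 0.141, permutation p = 0.602) and the sign turned with the group means removed (0.11).

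Training without a tumor, E compared with C, was where the most members reached an unadjusted p under 0.05: 4 higher and 1 lower of 10, where the contrast held 14.2% of all tested genes. The members were chosen with earlier results of these data known, so this is not an independent comparison. No member passed the adjusted test in edgeR, which called 0.0881% of all genes, and DESeq2 called 2.23% of its genes and 0 members. Slc38a2, a carrier that cells are known to raise when amino acids run short, stood at 42.0, 36.7, 30.6 and 28.9 FPKM in C and at 51.9, 68.4, 31.2 and 46.0 FPKM in E. Its log2 fold change was 0.48 (SE 0.222, edgeR adjusted p = 0.344), and without the library E 2, its highest, 0.27. Slc38a4 stood at 17.4, 17.4, 16.3 and 16.3 FPKM in C and at 24.3, 31.2, 18.4 and 23.9 FPKM in E. In FPKM each E library was above each C library, whereas in CPM scaled by the TMM factors the ranges overlapped, with E 3 at 76.8 and C 1 at 79.3. The log2 fold change was 0.50 (SE 0.184, interval 0.11 to 0.89, edgeR adjusted p = 0.242).

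Slc7a2, the carrier of arginine and lysine, was the 1 member of the 5 with a value below 0. It stood at 8.33, 8.08, 12.3 and 9.43 FPKM in C and at 7.72, 7.19, 10.4 and 5.41 FPKM in E. The third replicate was the highest of both groups and the groups overlapped, with a log2 fold change of -0.35 (SE 0.166, edgeR adjusted p = 0.350). It was -0.22 without C 3 and -0.23 without E 4. In T it stood at 11.6, 8.98, 10.4 and 9.15 FPKM and in TE at 10.9, 7.85, 9.34 and 7.80 FPKM, so the lowest value of the 16 was E 4.

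In CPM scaled by the TMM factors the ranges of E and C did not overlap for 3 members, as for 9.08% of all tested genes. These were Slc7a5, higher in E, and Bckdha and Bckdk, lower in E. Fibroblast markers (5 genes, 436 to 548 FPKM in E, 298 to 405 in C) and endothelial markers (6 genes, 156 to 170 in E, 119 to 154 in C) also stood apart between these groups, and their part in the member values was not tested.

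**Figure D2:**
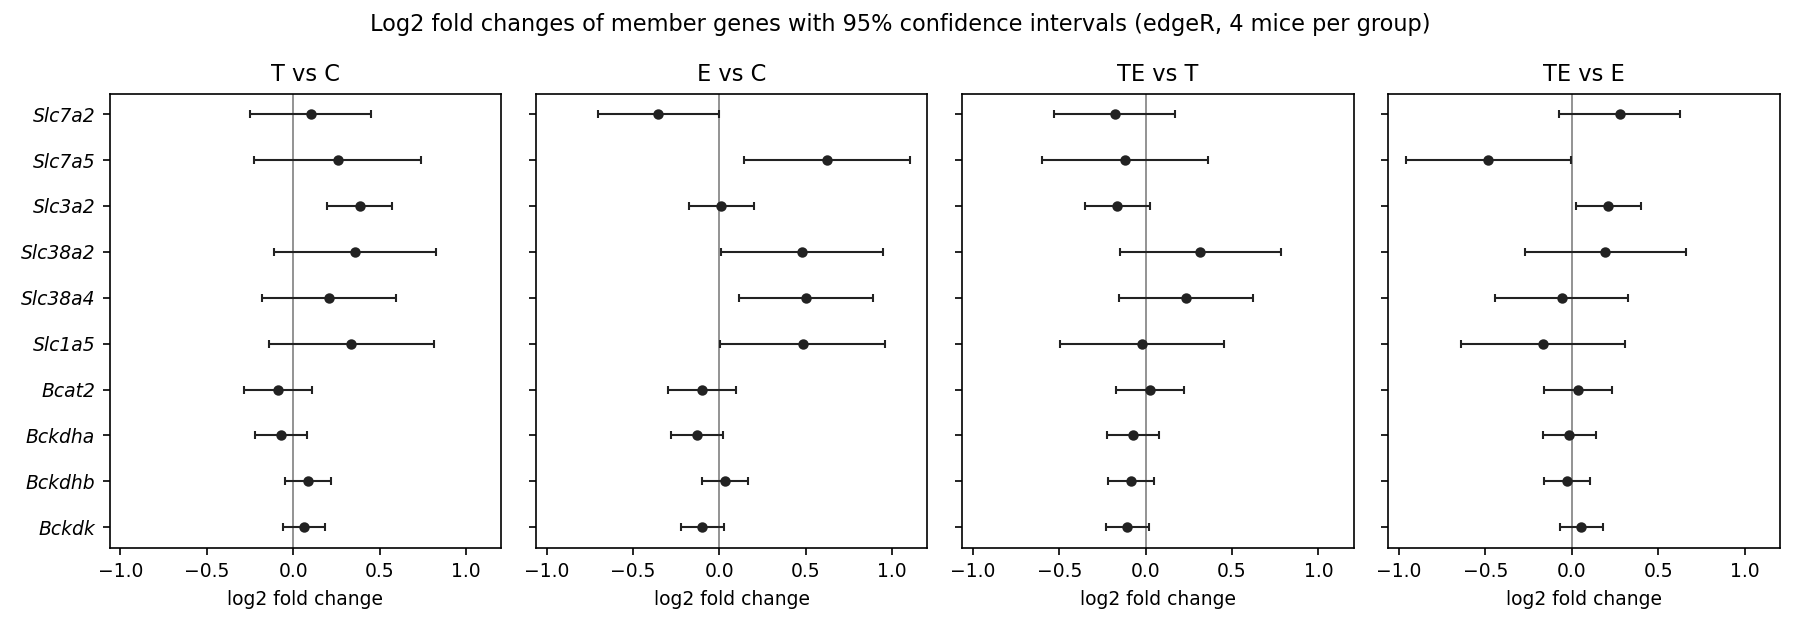
Log2 fold change (x axis) of each gene (y axis) with its 95% confidence interval from edgeR for T vs C, E vs C, TE vs T and TE vs E. Intervals that leave out 0 are not adjusted for the number of genes; the T vs C interval of Slc3a2 runs from 0.20 to 0.57 and those of Bckdhb span 0 in all 4 panels.

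In tumor-bearing mice, training left the members without a call. TE compared with T called 0% of all tested genes and 0 of 10 members in edgeR, DESeq2 called 0.0294% of its genes and 0 members, and at an unadjusted p under 0.05 there were 5.88% of all genes and 0 members. The log2 fold changes ran from -0.18 (Slc7a2) to 0.32 (Slc38a2). Slc38a2 stood at 50.7, 36.5, 56.6 and 30.3 FPKM in T and at 60.7, 56.1, 59.4 and 42.4 FPKM in TE. The groups overlapped, and the interval of its difference, -0.15 to 0.78, includes the value seen without a tumor. Slc3a2 gave -0.16 (interval -0.35 to 0.023, edgeR adjusted p = 0.857).

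Among trained mice, TE compared with E called 0.231% of all tested genes and 0 of 10 members in edgeR, and DESeq2 called 1.17% of its genes and 0 members. At an unadjusted p under 0.05 there were 9.23% of all genes and 2 members, Slc7a5 with the value above and Slc3a2 with 0.21 (SE 0.0889, edgeR adjusted p = 0.473). The Slc3a2 value was 0.13 without TE 3 and 0.24 without TE 4. The TE vs E and E vs C comparisons share the E mice, as T vs C and E vs C share the C mice.

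Averaged over both tumor states, training called 0.00678% of all tested genes and 0 of 10 members in edgeR, and DESeq2 called 0.788% of its genes and 0 members. At an unadjusted p under 0.05 there were 10.8% of all genes and 4 members. The values were 0.37 for Slc38a4 (SE 0.130, edgeR adjusted p = 0.347), 0.40 for Slc38a2 (SE 0.157, adjusted p = 0.388), -0.10 for Bckdk (SE 0.0413, adjusted p = 0.393) and -0.27 for Slc7a2 (SE 0.117, adjusted p = 0.430). Without TE 4 they were 0.43, 0.46, -0.11 and -0.23. In the same contrast 5 of 5 fibroblast markers were above 0 (median 0.28), and over the 16 libraries Bckdk gave r = -0.691 and rho = -0.694 with their summed FPKM, -0.426 with group means removed and -0.594 without the 2 outer libraries, 1 of the 70 relations with marker sums that are given below without a test. The part of fibroblasts in the Bckdk level was not tested. The interaction of tumor and training called 0% of all genes and 0 members in edgeR, DESeq2 called 0.124% of its genes and 0 members, and at an unadjusted p under 0.05 there were 9.21% of all genes and 1 member, Slc7a5.

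Slc38a2 and Slc38a4 varied together across the mice. They are paralogs that lie on the same strand of chromosome 15, Slc38a2 at chr15:96585266-96597894 and Slc38a4 at chr15:96892693-96958593 (GRCm39), 294798 bases apart. In TE the Slc38a4 level was 27.7, 19.8, 26.1 and 17.1 FPKM and in T it was 23.5, 16.2, 22.4 and 14.2 FPKM. The libraries E 2, TE 1 and TE 3 were the highest of the 16 for both genes, and E 3, T 2 and T 4 were low for both within their groups. Over the 16 libraries r was 0.893 and rho 0.876, r was 0.903 with group means removed and 0.870 without the 2 libraries farthest from the median of Slc38a2. The pair was picked after its values were seen, and no test is given. Among the 14748 other tested genes Slc38a4 had rank 4 by r with Slc38a2, after Nfil3 (0.908), Hr (0.898) and Themis3 (0.897). Nr4a3 (0.902) was nearest to Slc38a4, with Slc38a2 in the next place.

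**Figure D3:**
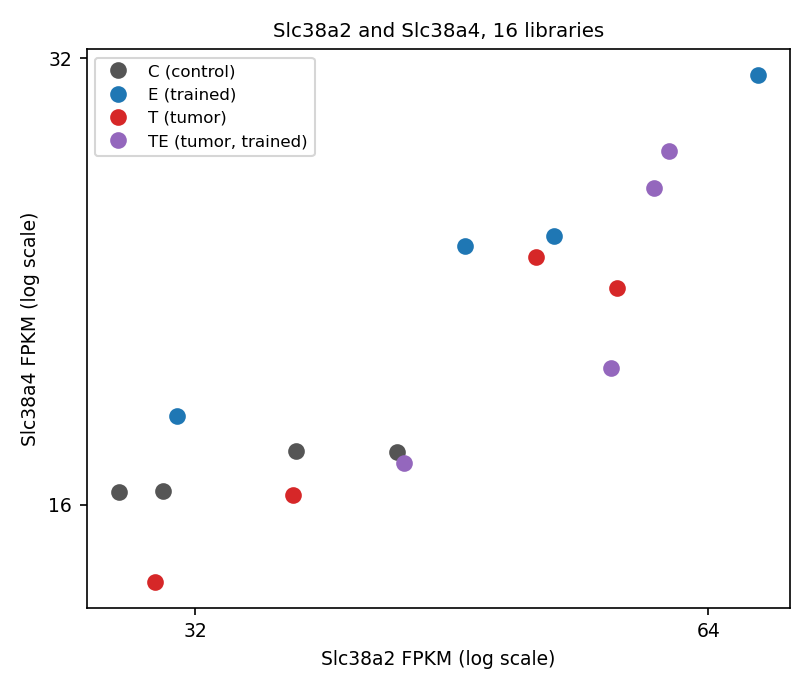
FPKM of Slc38a2 (x axis, log scale) against FPKM of Slc38a4 (y axis, log scale), 1 dot per library, coloured by group. At the lower left are C 4, lowest in Slc38a2 (28.9 FPKM, with 16.3 of Slc38a4), and T 4, lowest in Slc38a4 (14.2 FPKM, with 30.3 of Slc38a2). E 2 is at the upper right, with 68.4 FPKM of Slc38a2 and 31.2 FPKM of Slc38a4.

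Slc1a5, a glutamine carrier, varied with the fat markers of the libraries and, less closely, with their macrophage markers. It stood at 4.16, 8.11, 7.78 and 5.35 FPKM in C, at 7.19, 12.2, 10.6 and 6.28 FPKM in E, at 4.80, 7.50, 9.36 and 9.83 FPKM in T and at 7.97, 8.05, 7.87 and 7.32 FPKM in TE. All 4 groups overlapped. The summed FPKM of 6 adipocyte markers (Adipoq, Plin1, Cfd, Lep, Cidec and Retn) was 12.9, 69.0, 73.3 and 30.3 in C, 66.5, 232, 149 and 42.6 in E, 12.7, 56.7, 166 and 137 in T and 65.1, 96.2, 77.5 and 40.1 in TE. Libraries low in one were low in the other, such as C 1 and T 1, and E 2 was the highest in both. Over the 16 libraries r was 0.965 and rho 0.953, r was 0.964 with group means removed and 0.949 without the 2 libraries farthest from the median, in a set of 70 relations of members with marker sums examined after the values were seen, for which no test is given. The sum of 6 macrophage markers (37.2 to 80.0 FPKM in C, 47.7 to 87.6 in E, 49.4 to 126 in T, 52.6 to 121 in TE) came next for Slc1a5, with r = 0.707 and rho = 0.712, 0.674 with group means removed and 0.804 without the 2 outer libraries. The part of either cell type in the Slc1a5 level was not tested. The genes nearest to Slc1a5 were Retn (0.969) and Adipoq (0.967), both adipocyte hormones, and Cdo1 (0.962).

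In E compared with C the log2 fold change of Slc1a5 was 0.48 (SE 0.227, edgeR adjusted p = 0.350). It was 0.30 without E 2 and 0.046 (SE 0.0891, edgeR adjusted p = 0.933) with the adipocyte sum as a covariate, an alternative added after the values were seen. The same covariate left Slc3a2 at 0.30 in the tumor main effect (edgeR adjusted p = 0.0226). In E compared with C it left Slc38a4 at 0.55 (edgeR adjusted p = 0.539), Slc38a2 at 0.52 (SE 0.255, edgeR adjusted p = 0.645), Slc7a2 at -0.38 (SE 0.189, edgeR adjusted p = 0.645) and Slc7a5 at 0.50 (SE 0.249, edgeR adjusted p = 0.648), against 0.50, 0.48, -0.35 and 0.62 without it. With the covariate the members at an unadjusted p under 0.05 in edgeR went from 5 to 1 in E compared with C, Slc38a4, where 8.06% of all tested genes passed that rule. They went from 2 to 1 in TE compared with E (Slc3a2, 8.31% of all genes), from 4 to 3 in the training main effect (Slc38a2, Slc38a4 and Slc7a2, 8.18%) and from 1 to 0 in the interaction (6.1%). The members that no longer passed there kept their direction, Slc7a5 at -0.42 in TE compared with E and -0.61 in the interaction (-0.48 and -0.74 without the covariate), and Bckdk at -0.086 for training (-0.10 without it).

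**Figure D4:**
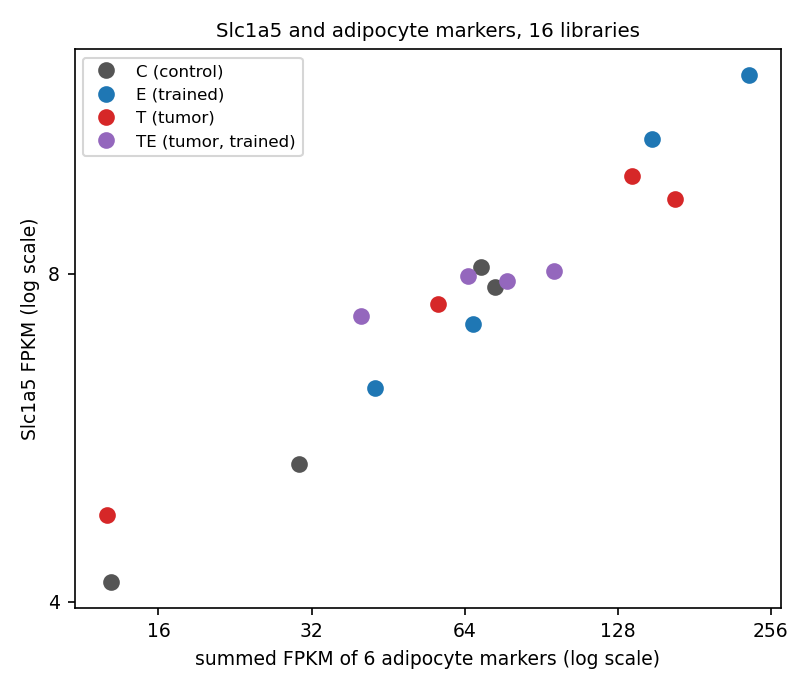
Summed FPKM of 6 adipocyte markers (x axis, log scale) against FPKM of Slc1a5 (y axis, log scale), 1 dot per library, coloured by group. Libraries of every group lie along 1 rising band, from C 1 at 12.9 and 4.16 FPKM to E 2 at 232 and 12.2 FPKM.

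The catabolic genes varied little across the groups. Bcat2, the mitochondrial transaminase, had means of 15.6 ± 0.836 (C), 14.95 ± 1.01 (E), 14.4 ± 2.24 (T) and 14.8 ± 0.847 FPKM (TE, SD, n = 4 each). Bckdhb had means of 16.2 ± 0.976, 17.0 ± 0.246, 16.8 ± 0.943 and 16.1 ± 0.754 FPKM in the same order. Neither gene reached an unadjusted p under 0.05 in any of the 7 contrasts, and the intervals in T compared with C were -0.28 to 0.11 for Bcat2 and -0.047 to 0.22 for Bckdhb.

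Bckdha, the phosphorylated subunit, stood at 64.9, 70.7, 70.1 and 76.0 FPKM in C, at 66.8, 64.7, 67.3 and 65.1 FPKM in E, at 65.0, 71.8, 58.1 and 67.9 FPKM in T and at 59.4, 66.9, 64.3 and 61.8 FPKM in TE. In FPKM the E values overlapped the lower end of the C range, whereas in CPM scaled by the TMM factors each E library was below each C library, and the same held for Bckdk. The log2 fold change in E compared with C was -0.13 (SE 0.0717, interval -0.28 to 0.020, edgeR adjusted p = 0.424). Bckdk, the inhibiting kinase, stood at 58.0, 59.3, 60.9 and 61.4 FPKM in C, at 59.2, 54.8, 58.9 and 56.8 FPKM in E, at 60.7, 61.6, 57.9 and 65.2 FPKM in T and at 54.4, 54.8, 59.4 and 62.1 FPKM in TE. Its log2 fold change in E compared with C was -0.099 (SE 0.0585, interval -0.22 to 0.025, edgeR adjusted p = 0.460). Neither difference passed the test. Over the 16 libraries Bckdha gave r = -0.501 (rho = -0.632) with the fibroblast sum, and -0.671 with group means removed. With the endothelial sum these were -0.598, -0.641 and -0.603. These are among the 70 relations with marker sums given without a test, and the part of these cells was not tested.

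The FPKM ratio of the kinase to its substrate subunit, Bckdk to Bckdha, averaged 0.852 ± 0.0372 in C, 0.870 ± 0.0170 in E, 0.937 ± 0.0588 in T and 0.916 ± 0.0767 in TE (SD, n = 4 each). With tumor the log2 ratio differed by 0.10 (exact permutation test within training strata, two-sided, p = 0.0290), which did not pass over the 6 ratio tests (adjusted 0.121). The library T 3, with the lowest Bckdha of the 16, had a ratio of 0.996, and the highest was TE 4 at 1.01. Without TE 4 the tumor difference was 0.0798. With training the difference was -0.0019 (exact permutation test, p = 0.965). The ratio of the E1 subunits, Bckdha to Bckdhb, was 4.36 ± 0.280 in C, 3.89 ± 0.0733 in E, 3.90 ± 0.282 in T and 3.93 ± 0.136 in TE, with differences of -0.073 for tumor and -0.076 for training (exact permutation tests, p = 0.125 and p = 0.111, both adjusted 0.150). Without T 3 these differences were -0.047 and -0.10. In untrained mice alone the tumor difference was -0.16, and in tumor-free mice alone the training difference was -0.16. Each E ratio (3.81 to 3.99) lay below each C ratio (4.04 to 4.69).

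Of the 6 pairs of partner genes whose correlation in log2 CPM was examined, Bcat2 with Bckdha had the highest Pearson r over all 16 libraries (r = 0.728, permutation p = 0.00159, adjusted 0.00954, rho = 0.618, adjusted 0.0363). With group means removed r was 0.757 (adjusted permutation p = 0.0514), and without the 2 libraries farthest from the median of Bcat2 it fell to 0.544 (adjusted permutation p = 0.0873), so the relation rests in part on those libraries. Bckdk with Bckdha gave r = 0.538 (permutation p = 0.0322, adjusted 0.0966) and rho = 0.638 (adjusted 0.0363), and its r was 0.540 with group means removed (adjusted permutation p = 0.26). Bckdha with Bckdhb gave r = 0.434 (permutation p = 0.0928, adjusted 0.139) and rho = 0.444 (adjusted 0.173), and its r was 0.630 with group means removed and 0.662 without the 2 outer libraries. Slc1a5 with Slc7a5 gave r = 0.461 (permutation p = 0.0722, adjusted 0.139) and rho = 0.279 (adjusted 0.440), and without the 2 outer libraries its r was 0.045. Slc38a2 with Slc7a5 gave r = 0.080 (permutation p = 0.766, adjusted 0.895) and rho = 0.0588 (adjusted 0.83). As a description, the most negative r of the 45 member pairs was that of Slc7a2 with Slc7a5, at -0.617 and at -0.517 with group means removed. The Slc38 carriers with Bcat2, Bckdha and Bckdk gave r from -0.542 (Slc38a4 with Bckdk) to -0.441 (Slc38a2 with Bckdk), and with group means removed from -0.516 (Slc38a4 with Bcat2) to -0.254 (Slc38a4 with Bckdha). With Bckdhb, r was 0.084 for Slc38a2 and -0.0070 for Slc38a4, and 0.108 and -0.0089 with group means removed.

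By likeness across the 16 libraries, Slc3a2 was nearest to Mknk2 (r = 0.905), Tmem252 (0.897) and Scarb1 (0.893). Slc7a2 was nearest to Kdm5d (0.872), Slc7a5 to Ctdspl (0.792), Bcat2 to Tada2a (0.839), Bckdha to Pogz (0.874), Bckdhb to Zfp428 (0.797) and Bckdk to Fem1a (0.874). These are the highest of 14748 coefficients each, and the points share library depth and cell makeup.

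Genes around the members were counted in 7 related lists. At an adjusted p under 0.05 edgeR called 0 of their genes in any of the 7 contrasts, and DESeq2 called 11, which are named with their values below. Of all the genes it tested DESeq2 called 2.85% in T and 2.23% in E, each compared with C. It called 2.96% in the tumor main effect and 0.788% in the training main effect. The lists were chosen with earlier results of these data known. The counts at an unadjusted p under 0.05 follow for each list. Over all tested genes that share was 14.2% in T compared with C, 14.2% in E compared with C and 9.23% in TE compared with E. Of 24 other plasma membrane amino acid transporters, 18 were tested. In T compared with C, 3 were higher and 1 lower at an unadjusted p under 0.05, with a median log2 fold change of 0.14 against -0.0012 over all genes, and in E compared with C it was 3 higher and 1 lower with a median of 0.34 against 0.0033. There 6 of 6 adipocyte (median 1.46), 5 of 5 fibroblast (0.65) and 6 of 6 macrophage markers (0.35) were also above 0. Of lymph node and lymphocyte markers 9 of 11 were below 0, and of muscle fiber markers 8 of 9. The part of these cells in the transporter values was not tested. Slc38a3, a glutamine and histidine carrier, had means of 11.1 ± 0.332 (C), 16.5 ± 2.28 (E), 16.5 ± 1.58 (T) and 13.8 ± 3.22 FPKM (TE, SD, n = 4 each). Its log2 fold change was 0.59 in T compared with C (SE 0.136, edgeR adjusted p = 0.0570, DESeq2 0.00370) and 0.54 in E compared with C (SE 0.135, edgeR adjusted p = 0.132, DESeq2 0.0160), with an interaction of -0.80 (SE 0.191, edgeR adjusted p = 0.420). The taurine carrier Slc6a6 gave -0.42 in TE compared with E (edgeR adjusted p = 0.294) and the neutral amino acid carrier Slc43a2 -0.27 in the training main effect (edgeR adjusted p = 0.336).

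Of 23 other enzymes of branched-chain catabolism, all tested, 18 had a value below 0 and 5 above it in E compared with C, with 3 lower and 0 higher at an unadjusted p under 0.05 and a median of -0.082. In TE compared with E, 20 lay above 0 and 3 below it, with a median of 0.082 and 2 higher at an unadjusted p under 0.05. These comparisons share the E mice. Of 9 muscle fiber markers 8 were below 0 in E compared with C (median -0.144) and 9 above 0 in TE compared with E (median 0.135), and of 5 fibroblast markers 5 were above 0 in the first (median 0.65) and 5 below 0 in the second (median -0.46). The part of these cell types in the enzyme values was not tested. In T compared with C the median was 0.030, with 1 higher. Hadhb and Hadha, which encode the mitochondrial trifunctional protein of fatty acid oxidation, gave -0.19 and -0.15 in the training main effect (edgeR adjusted p = 0.188 and 0.193, DESeq2 0.0191 and 0.0171), and Hadha was also called by DESeq2 in E compared with C (-0.19, adjusted p = 0.0319). The hydratase gene Echs1 gave 0.15 in the tumor main effect (edgeR adjusted p = 0.0699, DESeq2 0.00744). In the list of 6 regulators of these genes, 4 were higher at an unadjusted p under 0.05 in T compared with C (14.2% of all tested genes passed that rule in either direction), with a median of 0.30. Klf15, a factor known to induce muscle amino acid catabolism, gave 0.53 (SE 0.144, edgeR adjusted p = 0.10, DESeq2 0.0207), Ppargc1a 0.39 (SE 0.105, edgeR adjusted p = 0.10, DESeq2 0.0323) and Ppara 0.39 (SE 0.175, edgeR adjusted p = 0.321), beside a Bcat2 value of -0.088 in the same contrast.

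In the other 4 lists the values were as follows for T compared with C, in which 14.2% of all tested genes had an unadjusted p under 0.05. Of 15 lysosomal and mitochondrial amino acid transporters 14 were tested, 1 was higher and 1 lower at an unadjusted p under 0.05, and the peptide and histidine carrier Slc15a4 gave 0.54 (edgeR adjusted p = 0.178). Of 9 enzymes of glutamine, alanine and glutamate 2 were higher, and Glul, the glutamine synthetase, gave 0.70 (SE 0.212, edgeR adjusted p = 0.134). Of 21 tested genes of the amino acid shortage response (23 listed) 2 were higher and 1 lower. Ddit4, an inhibitor of mTORC1 signalling, gave 1.29 in the tumor main effect (edgeR adjusted p = 0.0699, DESeq2 0.0292), with 7.96 ± 0.696 FPKM in C and 10.7 ± 2.40 in E against 18.5 ± 16.8 in T and 26.2 ± 17.8 in TE (SD, n = 4 each). Cebpb gave 0.34 in the tumor main effect (edgeR adjusted p = 0.0772, DESeq2 0.0193), and Ddit3, which encodes the stress factor CHOP, gave -0.50 in T and -0.52 in E compared with C (edgeR adjusted p = 0.11 and 0.146, DESeq2 0.0355 and 0.0345). Of 28 tested genes of amino acid sensing by mTORC1 (29 listed) 5 were higher and 0 lower, and the leucine sensor gene Sesn1 gave 0.37 (edgeR adjusted p = 0.108, DESeq2 0.0398). Castor1, which encodes an arginine sensor, gave 0.49 in the tumor main effect (edgeR adjusted p = 0.101, DESeq2 0.0322).

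**Figure D5:**
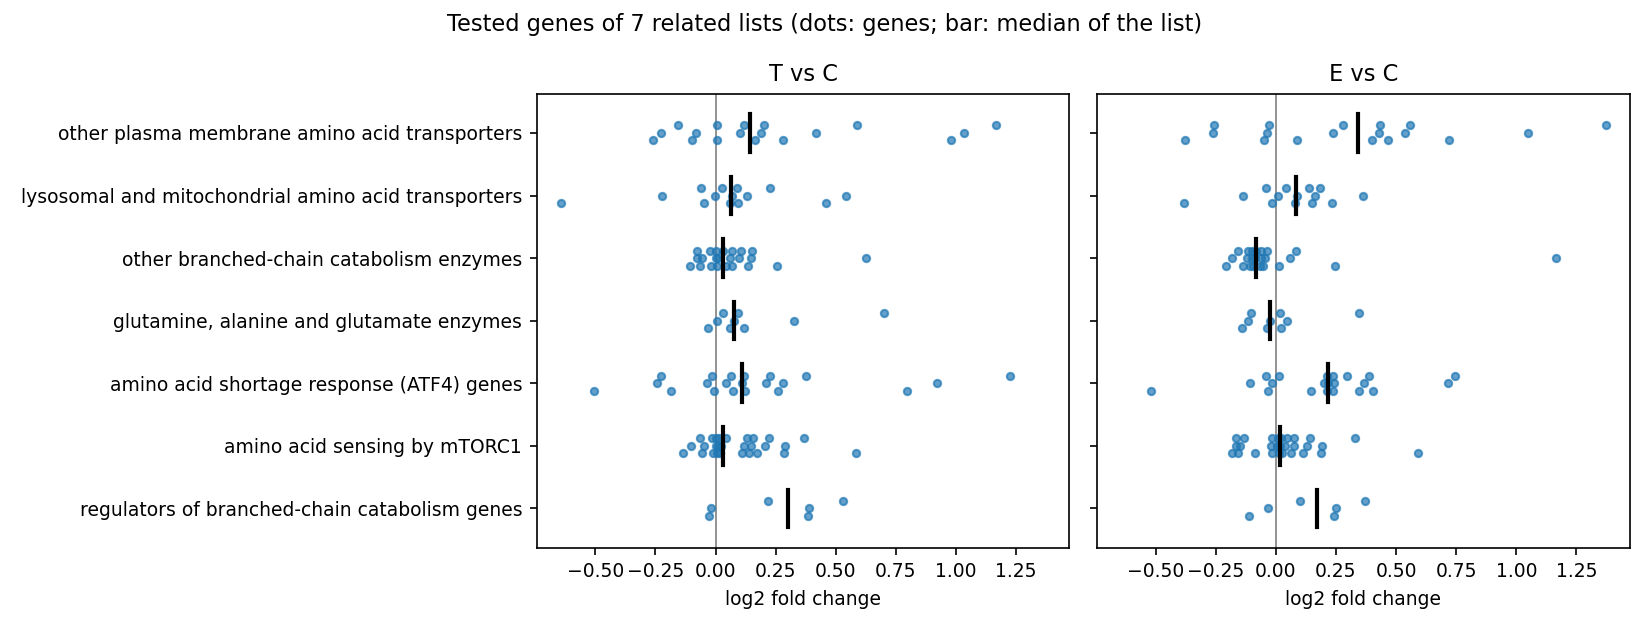
Log2 fold change (x axis) of each tested gene (dots) in 7 related lists (y axis) for T vs C and E vs C, with a bar at the median of the list. The enzymes of branched-chain catabolism lie close to 0 with medians of 0.030 and -0.082, and the plasma membrane transporters spread widely around medians of 0.14 and 0.34.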

How the data were processed

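PolyA RNA of gastrocnemius from 4 mice per group, all in batch 1, was sequenced. Per the submitters' processing notes, reads were trimmed with fastp (0.20.1), aligned to GRCm39 with HISAT2 (2.1.0) and counted per gene with HTSeq (0.11.2), and DESeq2 was used by the authors. Neither the gene annotation used for counting nor its strand setting is given in the sources used here, so reads of overlapping antisense genes cannot be told apart. The methods name a V5 library kit and the labels a V6 kit. The authors deposited 1 table of raw read counts per gene and 1 table of FPKM, which the authors had scaled by gene length and library total.

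Counts were fitted over all 16 libraries with edgeR (4.0.16, quasi-likelihood test, TMM factors, filterByExpr, R 4.3.3) with 1 coefficient per group and 7 contrasts, and called at a Benjamini-Hochberg adjusted p under 0.05 over all 14749 tested genes. SEs were taken as the fold change over the square root of F. DESeq2 (1.42.0), limma-voom (limma 3.58.1), other scaling factors, no filter, the study's fold rule, the compared groups alone, a replicate block and leaving out each library were alternatives. Correlations used log2 CPM with a prior count of 2 and 100000 permutations, with Benjamini-Hochberg adjustment over the 6 pairs. Ratios were tested with exact permutations within strata (4900 regroupings). Every member is named, as are up to 3 genes per related list by smallest p and the nearest genes by r. Mice, not reads, are the replicates. The scripts were tested on simulated data. Of 100 genes given a log2 change of 0.4, T compared with C called 21 and the tumor main effect 48. Changes of this size can thus be missed. The members and lists were chosen with earlier results of these data known. Replicate numbers did not pair the mice. Coordinates of genes are from GENCODE vM39 on GRCm39, and sequences from RefSeq on GRCm38.p6.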

Additional observations from a re-analysis of the deposited data

How the results depend on the processing

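Of the log2 fold changes of members at an unadjusted p under 0.05, each kept its direction under every alternative run. The alternatives used the same libraries, so picking changes by that p made a kept direction likely in advance. The number of members called in T compared with C was 0 in the edgeR fit as reported, 1 with DESeq2, 1 with no low count filter, 1 by unadjusted p and 0 to 1 with a library left out. For the tumor main effect it was 1, 0 under the fold rule of the study (over 2 or under 0.5), and 0 to 1 with a library left out. By unadjusted p there were 5 members in E compared with C, 2 in TE compared with E, 4 for training and 1 for the interaction, and with the adipocyte marker sum as a covariate, added after the values were seen, 1, 1, 3 and 0. Under that covariate Slc1a5 in E compared with C moved from 0.48 to 0.046, while the others that no longer passed stayed at 0.50 (Slc7a5), 0.52 (Slc38a2) and -0.38 (Slc7a2) in E compared with C, -0.42 and -0.61 (Slc7a5) in TE compared with E and the interaction, and -0.086 (Bckdk) for training. Leaving out a library moved the tumor log2 ratio of Slc7a5 to Slc3a2 between -0.52 and -0.34, that of Bckdk to Bckdha between 0.0798 and 0.13 and that of Bckdha to Bckdhb between -0.091 and -0.047 (without T 3), and the training log2 ratio of Bckdha to Bckdhb between -0.10 and -0.058. The values past 0.05 over the 6 tests were those without T 2 (adjusted 0.0343 and 0.0355 for the tumor ratios of Slc7a5 to Slc3a2 and Bckdk to Bckdha), without TE 2 (0.0171, Bckdk to Bckdha) and without T 3 (0.0416, Bckdha to Bckdhb), by the exact permutation test. Within 1 stratum of the other factor, the log2 ratio of Slc7a5 to Slc3a2 was -0.14 for tumor in untrained mice and 0.60 for training in tumor-free mice, against -0.42 and 0.32 in all mice. In the 7 related lists edgeR called 0 genes and DESeq2, counted there after the edgeR result was seen, called 11. Of all the genes it tested, DESeq2 called from 0.0294% (TE compared with T) to 2.96% (tumor main effect). The training log2 ratio of Bckdk to Bckdha, -0.0019 in all mice, turned sign to 0.0310 in tumor-free mice and ran from -0.025 to 0.024 with a library left out, positive without C 1 (0.0097), C 3 (0.0030), E 2 (0.0047), T 3 (0.0132), T 4 (0.0043) or TE 2 (0.0244). The correlation of Slc7a5 with Slc3a2 turned from -0.036 to 0.11 with group means removed, 0.0127 on log2(FPKM + 1), 0.0251 on log2(FPKM + 0.1) and 0.0587 without the 2 outer libraries, and that of Slc38a2 with Slc7a5 to -0.0753 with group means removed and -0.19 without the 2 outer libraries. That of Bcat2 with Bckdha was 0.757 and 0.544 under these settings. Same-numbered mice of different groups did not deviate together (median r -0.0127, from -0.24 to 0.21, 24 pairs), and the fit with a replicate block called 1 member in the tumor main effect and 0 in the other 6 contrasts. The causes of these changes were not tested. Slc7a5 had the lowest counts of the members, 73 to 196 per library.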
